A study of Mus musculus with 4 samples.

Results

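The stathmins, the collapsin response mediator proteins (CRMPs) and the growth cone proteins are cytoskeletal regulators of neurons, and 10 of their genes were followed here across spatial transcriptomes of the mouse posterior eye: Stmn1, Stmn2, Stmn3, Stmn4, Dpysl2, Dpysl3, Crmp1, Gap43, Map1b and Tubb3. They were chosen by name from the 32285 genes of the count matrices, and each had exactly 1 row there. The samples were 4 Visium capture areas, called frames, each labelled as a separate biological replicate from C57BL/6J mice, and the 4 shared a single treatment label, Naive+AAV2/2, an adeno-associated virus being the agent. The series' design text also describes Wif1-overexpressing and control vectors and later time points, but the labels set no frame apart, so conditions were not compared. The labelled tissue is retina, and the sections of fresh-frozen posterior eyes also held the eye's outer coat and optic nerve.

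Stathmins bind tubulin dimers and favour microtubule disassembly, an action that phosphorylation switches off. Stmn1 is cytosolic, whereas Stmn2 (SCG10), Stmn3 (SCLIP) and Stmn4 (RB3) carry a membrane anchor and are known mainly from neurons, Stmn4 also from rodent oligodendrocytes. CRMPs (Crmp1, Dpysl2 for CRMP2 and Dpysl3 for CRMP4) bind tubulin and actin and act downstream of the repulsive guidance cue semaphorin 3A. Gap43 is a membrane-bound phosphoprotein of growing axons, Map1b a microtubule-associated protein of developing and regenerating axons, and Tubb3 the neuronal class III beta-tubulin, long used to stain retinal ganglion cells, whose axons form the optic nerve.

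The 4 frames held 1201, 1243, 1056 and 1103 spots over tissue and 895894, 1066633, 885454 and 674029 unique molecular identifiers (UMIs, each standing for 1 captured transcript), with medians of 430 to 630.5 UMIs a spot. A spot is a small area that can hold several cells of different types, and 1271 of the 2458 distinct spot barcodes occurred in more than 1 frame, as slides share their barcode set. Spots with at least 100 UMIs were grouped by marker genes that are not among the 10 genes. A spot took the marker panel most enriched over its expected share if that panel had at least 5 UMIs, was enriched at least 1.5 times and exceeded the next panel at least 1.2 times. This gave 100 optic nerve spots (0, 20, 30 and 50 by frame), 677 ganglion spots (154, 210, 167 and 146), 83 bipolar spots (36, 26, 16 and 5), 572 coat spots (142, 210, 179 and 41) and 968 rod spots (252, 218, 210 and 288), while 2203 spots (47.9%) stayed ungrouped. The groups are mixtures named for the panel they were chosen on. Amacrine markers summed to 2743 ± 161 CPM (UMIs per 1000000 UMIs of the same spots) in ganglion spots, against 231 ± 56.0 CPM in rod spots (SD, n = 4 frames), and all 11 were detected in ganglion spots. Cone markers summed to 1212 ± 73.0 CPM in rod spots, with all 7 detected. The ganglion panel summed to 920.03 ± 210.03 CPM in optic nerve spots, from 46 UMIs and with 7 of its 14 genes detected, against 21090 ± 935 CPM in ganglion spots. At 0 in the nerve were Slc17a6, Rbpms2, Pou4f1, Pou4f2, Pou4f3, Chrna6 and Isl2, of which Pou4f3 and Isl2 had only 7 and 11 UMIs in ganglion spots. In a bulk sum of spots, fewer cells of a type and less RNA per cell cannot be told apart.

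Together the 10 genes gave 13561 of 3522010 UMIs (0.385%). Over whole frames, Dpysl2 averaged 1349 ± 136 CPM, Stmn4 773 ± 128 CPM, Map1b 615 ± 37.6 CPM, Crmp1 508 ± 59.3 CPM, Dpysl3 245 ± 50.04 CPM and Stmn1 114 ± 16.4 CPM (SD, n = 4 frames; CPM refers to all UMIs under tissue and is not divided by transcript length, so it does not order the genes). Stmn2 averaged 78.3 ± 17.3 CPM, Stmn3 73.6 ± 17.5 CPM, Gap43 54.5 ± 13.7 CPM and Tubb3 48.6 ± 5.39 CPM. Map1b varied least between frames, with an SD of 6.11% of its mean, and Gap43 most, with 25.1%. Dpysl2 was seen in 33.9% of spots, Map1b in 26.2% and Stmn4 in 20.2%, while Tubb3 was seen in 3.22% and Gap43 in 3.28%, so most spots carried no UMI of the sparser genes. All 10 passed the filter on low counts. It asked for a set CPM level in at least 3 sums of a frame and a spot group. For Stmn1, Stmn2, Stmn3, Gap43 and Tubb3, only ganglion spots reached 10 UMIs in at least 3 frames. In the other spot groups Stmn2 had at most 46.7 CPM, and Gap43 exceeded 39.0 CPM in 1 sum alone. Stmn2 and Gap43 therefore entered the tests through the group in which they were high. Stmn1 (140.0 to 169.5 CPM in optic nerve spots) and Stmn3 (82.9 to 137 CPM in bipolar spots of frames 1 to 3) also reached the level elsewhere. The route of Tubb3 was not worked out.

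In ganglion spots, 8 of the 10 genes were higher than in rod spots, 1 (Dpysl3) was lower, and Map1b did not pass the test. The test was edgeR's quasi-likelihood fit of UMIs summed per frame and spot group, adjusted over 4115 genes, and it called 24.8% of all genes higher and 21.5% lower in this comparison (46.3% in either direction). The median log2 fold was 3.07 over the 10 genes, against 0.00 over all genes tested. Since Stmn2 and Gap43 entered through ganglion spots, this count and median are a description. Stmn4, Dpysl2, Dpysl3, Crmp1 and Map1b also reached 10 UMIs in at least 3 frames of another group. Of these 5 genes, 3 were higher, 1 was lower and 1 did not pass. In bipolar spots, 5 of the 10 genes were higher than in rod spots and 2 lower, where 12.8% and 12.7% of all genes were called, and the median log2 fold was 1.40 over the 10 genes against −0.14 over all. Müller glia markers summed to 5150 ± 2024 CPM in bipolar spots and 755 CPM in rod spots, with 7 of 9 tested called higher. Amacrine markers summed to 1711 ± 765 CPM in bipolar spots with 6 of 8 tested called higher over rod spots, while the bipolar panel itself summed to 4680 ± 464 CPM there. The part of these cells in the bipolar results was not tested. Ganglion spots exceeded bipolar spots in 5 of the 10 genes and were lower in none, with 7.8% and 4.47% of all genes called (12.3% in either direction), and medians of 1.57 and 0.15. Stmn2 and Gap43 were among these 5, so this count and median are a description too. Optic nerve spots were higher than ganglion spots in 1 gene, Stmn4, and lower in 5, where 5.01% and 17.4% of all genes were called (22.4% in either direction). The median was −1.49 over the 10 genes, or −1.33 with Stmn3, which had 0 UMIs in the nerve, at its bound, against −1.10 over all genes. Stmn2 was among the 5 lower genes, so the count and median of optic nerve over ganglion spots are likewise a description. In coat spots Dpysl2 was higher than in rod spots, Dpysl3 and Map1b were lower, and 7 genes did not pass, where 16.1% of all genes were called higher and 14.8% lower (30.8% in either direction). The Dpysl2 call was lost in 6 of 14 alternatives, among them each that left out a frame.

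**Figure D1:**
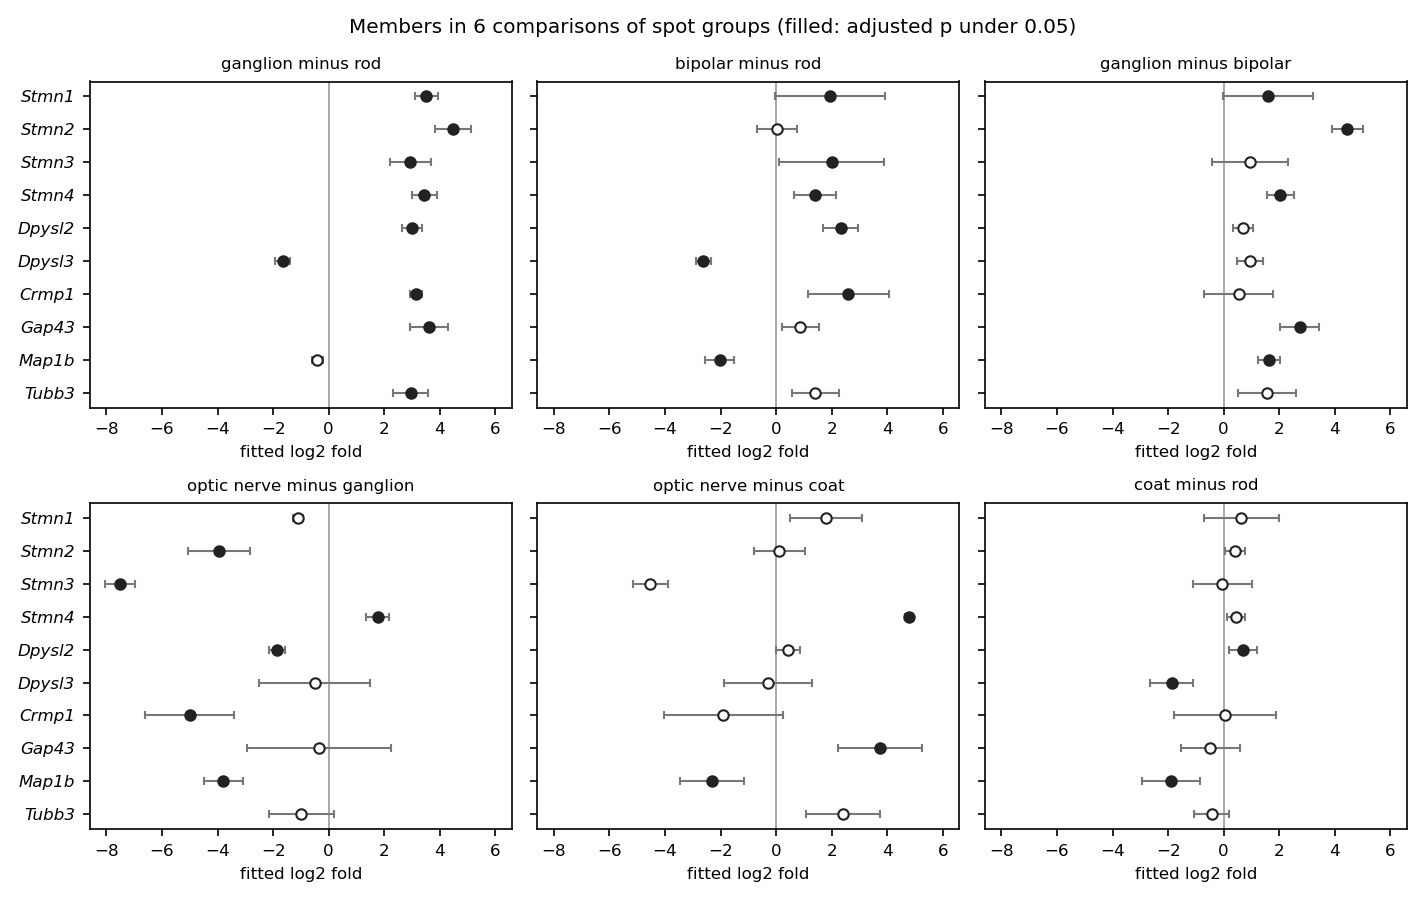
Fitted log2 folds of the 10 genes (horizontal axis, log2 of the first-named group over the second) in 6 comparisons of spot groups. Filled points passed an adjusted p of 0.05. Bars are the SD over single-frame folds (n = 4 frames, 3 where optic nerve spots enter), drawn around the fitted fold and not around the mean of those folds. Stmn4 lies to the right in both optic nerve panels, and Dpysl3 lies to the left against rod spots in 3 panels; the point of Stmn3 in optic nerve spots, which held 0 UMIs of it, depends on the prior count and is not an estimate.

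The all-gene median was not at 0 in every comparison. It was −1.10 for optic nerve over ganglion spots and −1.02 for optic nerve over coat spots with TMM library scaling, and −0.49 and −0.42 without it, so that the scaling shifted both by about −0.60. It also shifted the median by −0.36 in bipolar over rod spots and by 0.27 in ganglion over bipolar spots. Where a main fitted log2 fold of the 10 genes involves optic nerve spots and is printed below, it is therefore also given relative to the all-gene median. Pooled ratios and folds under alternatives are not set against it. For the genes given as pooled ratios of ganglion over optic nerve spots, the fitted folds of optic nerve over ganglion spots relative to that median were −2.86 (Stmn2), −3.90 (Crmp1) and −2.69 (Map1b).

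Stmn4 was the 1 stathmin that was higher in optic nerve than in ganglion spots. Its level was 5933, 9974 and 8026 CPM in the optic nerve spots of frames 2, 3 and 4, against 1642, 1747, 1653 and 1660.2 CPM in the ganglion spots of frames 1 to 4. Every optic nerve value lay above every ganglion value, and the 4 ganglion values were close together. The fitted log2 fold was 1.77 ± 0.42 (SD of the frames' folds, n = 3), or 2.87 relative to the all-gene median, with an edgeR adjusted p of 3.54e-08. Here and below, the SD is that of the frames' own folds, whose mean (2.20 in this case) can differ from the fitted fold. The transcript was widespread in the nerve: 69 of its 100 spots held at least 1 of the 396 UMIs, and the spot with most held 22.

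Outside nerve and ganglion spots Stmn4 was lower. Bipolar spots had 355, 722, 332 and 543 CPM, coat spots 178, 174, 281 and 206 CPM, and rod spots 105, 148, 205 and 96.4 CPM in frames 1 to 4. Bipolar values lay above all rod values, while coat and rod values overlapped. The log2 fold of ganglion over rod spots was 3.44 ± 0.45 (edgeR adjusted p 8.45e-31, a 10.8-fold difference) and of ganglion over bipolar spots 2.04 ± 0.48 (adjusted p 8.53e-09). Bipolar over rod spots reached 1.39 ± 0.75 (adjusted p 0.000635), and this call was lost without frame 2 (0.98, adjusted p 0.0841). Against coat spots, optic nerve spots differed by 4.77 ± 0.12 (n = 3, adjusted p 1.19e-42), or 5.80 relative to the all-gene median. In that comparison 2 of the 10 genes were called higher and 1 lower, where 3.06% of all genes were called higher and 9.11% lower (12.2% in either direction). The nerve panel, myelin genes such as Mbp and Mag, summed to 164608 CPM in optic nerve spots and to 236 CPM in ganglion spots, and its part in the Stmn4 difference was not tested.

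**Figure D2:**
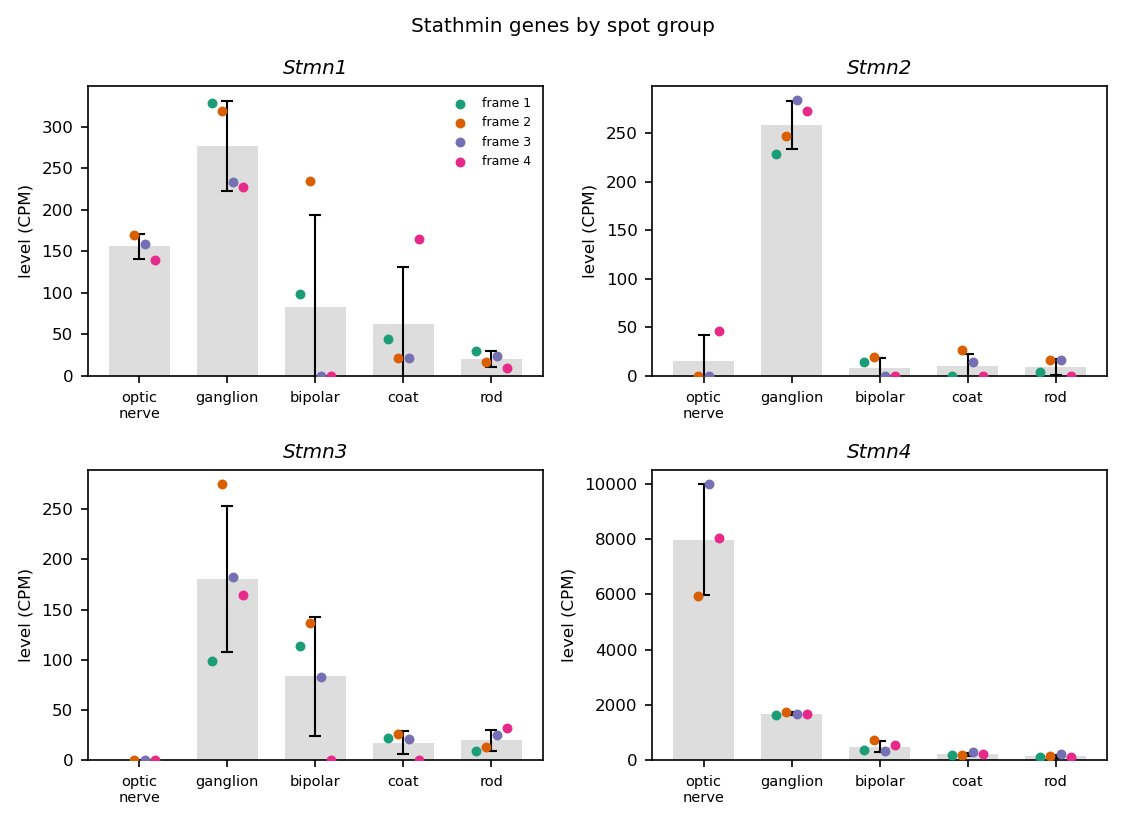
Levels of the 4 stathmin genes (vertical axis, CPM, each panel on its own linear scale from 0) in 5 spot groups; points are frames, bars their mean and error bars the SD (n = 4 frames, 3 for optic nerve). Stmn4 stands at 5933 to 9974 CPM in optic nerve spots, above every other group, while Stmn2 and Stmn3 stand highest in ganglion spots.

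Stmn2, the stathmin whose protein is carried into growing axons, was concentrated in ganglion spots. These had 229, 247, 284 and 273 CPM in frames 1 to 4, against 14.2, 19.5, 0 and 0 CPM in bipolar spots. Rod spots had 4.38, 16.9, 16.4 and 0 CPM. Ganglion values overlapped neither group, and 74.6% of all Stmn2 UMIs came from ganglion spots. The log2 fold over rod spots was 4.47 ± 0.65 (n = 4, edgeR adjusted p 1.21e-17). Stmn2 entered the tests through ganglion spots alone, so its calls against them are a description. Bipolar spots held 2 UMIs of Stmn2 in all, so that the pooled ratio of ganglion over bipolar spots was 20.0 with a 95% counting interval of 5.48 to 167 (adjusted p 6.20e-07). In optic nerve spots there was 1 UMI, in frame 4, and the pooled ratio of ganglion over optic nerve spots was 11.97 (2.12 to 475). This ratio and the later ones like it take in the ganglion spots of frame 1, which had no optic nerve spots. The nerve call had an edgeR adjusted p of 0.00153 and was lost with DESeq2 (adjusted p 0.0537).

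Stmn3, a close relative of Stmn2, was detected in both ganglion and bipolar spots, with 150 and 17 UMIs. Ganglion spots had 99.1, 275, 183 and 165 CPM and bipolar spots 113, 137, 82.9 and 0 CPM in frames 1 to 4. The groups overlapped, and the log2 fold of 0.95 ± 1.37 did not pass (edgeR adjusted p 0.233). With so few bipolar UMIs this does not show that the levels were alike. Rod spots had 8.76, 12.7, 24.6 and 32.1 CPM, below every ganglion value, and ganglion over rod spots reached 2.94 ± 0.73 (adjusted p 2.20e-09). Optic nerve spots held 0 UMIs of Stmn3, so that the pooled ganglion level was at least 2.95-fold higher than the 3 UMIs over the whole nerve group that a count of 0 allows (adjusted p 0.00142). Bipolar over rod spots (1.99 ± 1.89, adjusted p 0.00974) lost its call without frame 1 (1.48, adjusted p 0.213), without frame 2 (1.67, adjusted p 0.139) and with no filter on low counts (1.75, adjusted p 0.0776).

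The Stmn3 promoter is shown beside those of Crmp1, Map1b and Tubb3 further on, as that of a gene higher in ganglion than in rod spots. It is the RefSeq stretch from 250 bases before to 50 bases after the gene's start (GRCm38.p6, chr2:181314451-181314750, minus strand), with matches on either strand to 5 motifs in capitals. The SOX motif ACAAAG occurred in 18.7% of 32851 promoters of the same length, and the motif TAATCC of CRX, a homeobox factor of photoreceptors, in 7.06%. The E-box CAGCTG was found in 16.3%, the SP motif GGGCGG in 35.7% and the TATA box, spelled TATAAA, in 13.6%. The Stmn3 stretch held 1 SOX match and none of the others, at 49.7% G+C.
Stmn3: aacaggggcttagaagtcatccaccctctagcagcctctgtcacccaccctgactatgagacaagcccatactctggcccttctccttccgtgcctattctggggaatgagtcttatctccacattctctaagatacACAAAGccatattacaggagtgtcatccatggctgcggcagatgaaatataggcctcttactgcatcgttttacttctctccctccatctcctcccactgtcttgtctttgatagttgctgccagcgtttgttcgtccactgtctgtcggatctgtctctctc

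Stmn1, the cytosolic stathmin, was also highest in ganglion spots. Their levels were 328, 319, 233 and 227 CPM, against 30.7, 16.9, 24.6 and 9.18 CPM in rod spots of frames 1 to 4, with no overlap. The log2 fold was 3.52 ± 0.42 (n = 4, edgeR adjusted p 1.30e-14). Bipolar spots had 99.3, 234, 0 and 0 CPM, a spread that took in both ends, and rested on 19 UMIs. Ganglion over bipolar spots (1.59 ± 1.61, adjusted p 0.0117) lost its call without frame 1 (1.41, adjusted p 0.138), without frame 3 (1.34, adjusted p 0.0944) and with DESeq2 (adjusted p 0.0871). Bipolar over rod spots (1.93 ± 1.99, adjusted p 0.00905) lost it without frame 2 (0.84, adjusted p 0.553) and with no filter on low counts (adjusted p 0.0733). Optic nerve spots had 169.5, 158 and 140.0 CPM from 7 UMIs, below every ganglion value, and the difference did not pass (−1.10 ± 0.18, or 0.00 relative to the all-gene median, adjusted p 0.211). The frames' own folds, to which the SD belongs, averaged −0.66.

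Among the CRMPs, Dpysl2 and Crmp1 marked both inner retinal groups, and Dpysl3 did the reverse. Dpysl2, which binds tubulin dimers and promotes axon outgrowth, had 3073, 2621, 2602 and 3189.7 CPM in ganglion spots, 2213, 2029.7 and 1699 CPM in the bipolar spots of frames 1 to 3 and 3690.0 CPM in the 5 bipolar spots of frame 4. Rod spots had 280.4, 368, 332 and 266 CPM. Both inner groups lay above every rod value, and they overlapped each other. Ganglion over rod spots reached 3.01 ± 0.35 (edgeR adjusted p 5.83e-27) and bipolar over rod spots 2.32 ± 0.64 (adjusted p 2.46e-14), while ganglion over bipolar spots did not pass (0.69 ± 0.36, adjusted p 0.0600). That last difference passed in 5 of 14 alternatives, among them the one without frame 4 (0.70, adjusted p 0.0307).

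Optic nerve spots kept an intermediate level of Dpysl2. It was 848, 1161 and 979.9 CPM in frames 2 to 4, with UMIs in 31 of 100 spots, below every ganglion value. The log2 fold over ganglion spots was −1.88 ± 0.29 (n = 3, edgeR adjusted p 2.54e-06), or −0.78 relative to the all-gene median. Against coat spots, at 489, 522, 555 and 865 CPM, it did not pass (0.43 ± 0.44, or 1.45 relative to the all-gene median, adjusted p 0.452), and it passed with DESeq2 (0.97, adjusted p 0.0243) and without TMM factors (1.03, adjusted p 0.0216). Stmn4 and Dpysl2 both lie on chromosome 14 (GRCm38.p6, 66344210 to 66361680 and 66802864 to 66911041).

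Crmp1 had 1004, 1237, 1045 and 1131 CPM in ganglion spots and 105, 109.9, 90.1 and 133 CPM in rod spots, with no overlap. Ganglion over rod spots was 3.14 ± 0.20 (n = 4, edgeR adjusted p 6.68e-25). Bipolar spots had 567, 1327, 1533 and 217 CPM, which spans values on both sides of the ganglion ones, and the difference between the groups did not pass (0.54 ± 1.24, adjusted p 0.227). Bipolar over rod spots did (2.60 ± 1.45, adjusted p 3.03e-13). In optic nerve spots 2 UMIs of Crmp1 were found, both in frame 4. The pooled ratio of ganglion over optic nerve spots was 25.8 (95% counting interval 7.13 to 214, adjusted p 4.04e-11). Coat spots had 211, 142, 91.4 and 0 CPM, overlapping rod spots.

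Crmp1 has 2 starts in RefSeq, and the upstream one is shown as a promoter of a gene higher in ganglion and bipolar spots (GRCm38.p6, chr5:37241808-37242107, plus strand). It is 77.0% G+C and holds 5 SP matches and 1 SOX match, in capitals, with the overlapping SP matches run together.
Crmp1: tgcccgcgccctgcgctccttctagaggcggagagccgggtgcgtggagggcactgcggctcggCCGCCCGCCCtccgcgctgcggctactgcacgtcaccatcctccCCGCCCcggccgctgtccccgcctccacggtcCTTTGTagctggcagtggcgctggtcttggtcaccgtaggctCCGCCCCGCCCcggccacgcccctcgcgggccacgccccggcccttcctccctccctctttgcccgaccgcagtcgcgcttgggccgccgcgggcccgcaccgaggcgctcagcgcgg

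Dpysl3, the member of the family linked to actin bundling in growth cones, was highest in rod spots. It had 192, 136, 142 and 154 CPM in ganglion spots, 70.9, 97.6, 124 and 109 CPM in bipolar spots and 412, 397, 438 and 496 CPM in rod spots of frames 1 to 4. Every rod value lay above every ganglion and bipolar value. The log2 fold was −1.66 ± 0.26 for ganglion over rod spots (n = 4, edgeR adjusted p 6.11e-07) and −2.62 ± 0.27 for bipolar over rod spots (adjusted p 3.63e-07), and 48.0% of all Dpysl3 UMIs came from rod spots. Coat spots had 55.5, 126, 141 and 288 CPM, also all below rod spots (−1.88 ± 0.77, adjusted p 1.61e-06). Optic nerve spots had 0, 158 and 187 CPM from 7 UMIs and differed from neither ganglion nor coat spots by the test (adjusted p 0.610 and 0.808). The cone markers that rod spots carry fell with the comparison too, all 5 tested being lower in ganglion spots, where 21.5% of all genes were. Whether rods or cones held the Dpysl3 transcripts was not tested.

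**Figure D3:**
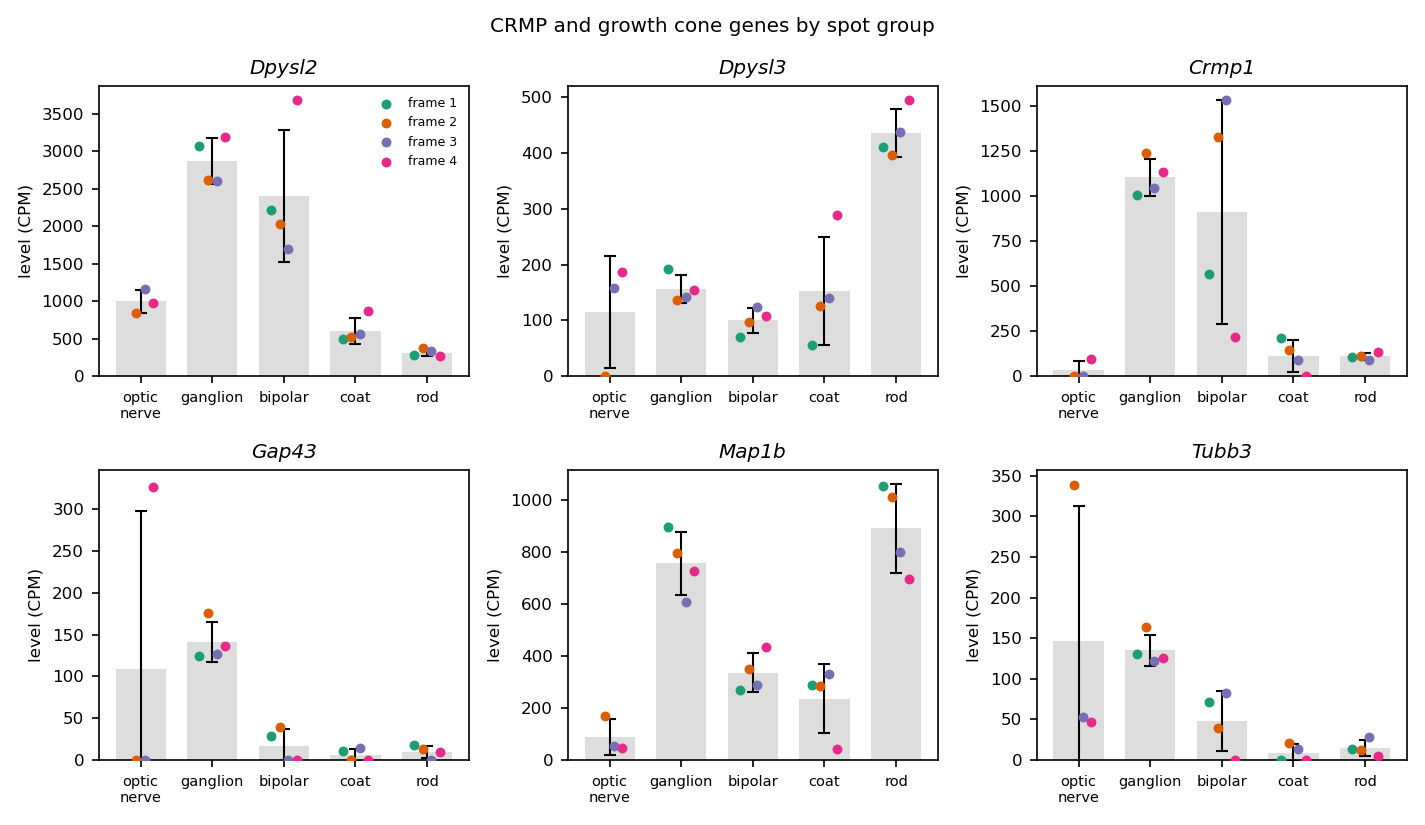
Levels of the CRMP genes (Dpysl2, Dpysl3, Crmp1) and of Gap43, Map1b and Tubb3 (vertical axis, CPM, each panel on its own linear scale from 0) in 5 spot groups; points are frames, bars their mean and error bars the SD (n = 4 frames, 3 for optic nerve). Dpysl3 is highest in rod spots at 397 to 496 CPM, Dpysl2 and Crmp1 are high in ganglion and bipolar spots, and the Gap43 level of optic nerve spots comes from frame 4.

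Map1b, the microtubule-associated protein, was high in both ganglion and rod spots. It had 898, 798, 609 and 728 CPM in ganglion spots and 1056, 1014, 803 and 698 CPM in rod spots of frames 1 to 4. Rod spots were the higher of the pair in 3 of 4 frames, the ranges overlapped, and the difference did not pass (−0.40 ± 0.20, edgeR adjusted p 0.179). Bipolar spots had 269.5, 351, 290.1 and 434 CPM, below both groups in every frame. Bipolar over rod spots was −2.03 ± 0.52 (n = 4, adjusted p 7.01e-08) and ganglion over bipolar spots 1.62 ± 0.40 (adjusted p 9.41e-05).

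In optic nerve and coat spots Map1b was below its ganglion and rod levels, and the coat values of frames 1 to 3 were near the bipolar ones. Optic nerve spots held 3 UMIs, 1 in each of frames 2 to 4, and the pooled ratio of ganglion over optic nerve spots was 11.7 (95% counting interval 3.97 to 56.7, edgeR adjusted p 5.18e-07). Coat spots had 289, 285, 330.4 and 41.2 CPM, all below rod spots (−1.89 ± 1.04, adjusted p 2.91e-09). Rod panel genes summed to 19486 CPM in those coat spots and to 79235 CPM in rod spots. Optic nerve over coat spots (−2.31 ± 1.15, or −1.29 relative to the all-gene median, adjusted p 0.0334) lost its call with DESeq2 (adjusted p 0.260), without TMM factors (adjusted p 0.195), and without frame 1 (adjusted p 0.0573), frame 2 (adjusted p 0.0978) or frame 3 (adjusted p 0.281).

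The Map1b promoter is shown because its gene was higher in rod than in bipolar and coat spots (GRCm38.p6, chr13:99516553-99516852, minus strand). In capitals it holds 1 TATA match, 2 SP matches and 1 CRX match near its 3′ end. A match describes letters and is not evidence of binding.
Map1b: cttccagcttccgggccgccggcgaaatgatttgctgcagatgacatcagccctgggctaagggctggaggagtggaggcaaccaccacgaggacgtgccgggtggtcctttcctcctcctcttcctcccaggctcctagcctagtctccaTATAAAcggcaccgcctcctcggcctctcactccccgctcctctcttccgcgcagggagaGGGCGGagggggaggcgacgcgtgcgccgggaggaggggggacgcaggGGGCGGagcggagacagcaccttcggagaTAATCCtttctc

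Gap43, the membrane phosphoprotein of growing axons, was concentrated in ganglion spots, which held 59.2% of its UMIs. Ganglion spots had 124, 176, 127 and 136 CPM in frames 1 to 4, against 28.4, 39.0, 0 and 0 CPM in bipolar spots. Rod spots had 17.5, 12.7, 0 and 9.18 CPM. Ganglion values overlapped with neither, and the log2 fold was 2.73 ± 0.70 over bipolar spots (n = 4, edgeR adjusted p 0.00342) and 3.61 ± 0.67 over rod spots (adjusted p 2.87e-10). Gap43 entered the tests through ganglion spots alone, so these calls are a description. In optic nerve spots Gap43 had 0, 0 and 327 CPM in frames 2 to 4. All 7 UMIs were in 2 spots of frame 4, with 6 in a single spot, and the pooled level was 151 CPM with that spot and 21.7 CPM without it. Optic nerve over ganglion spots did not pass (−0.35 ± 2.58, or 0.74 relative to the all-gene median, adjusted p 0.754). The call of optic nerve over coat spots (3.73 ± 1.52, or 4.75 relative to the all-gene median, adjusted p 0.00945) changed sign without frame 4 (−3.10, adjusted p 0.677). The nerve then held 0 UMIs of Gap43, so −3.10 depends on the prior count and is not an estimate. The frames' own folds averaged 0.53. The call was also lost without frame 2 (3.43, adjusted p 0.0546), with at least 200 UMIs a spot (1.29, adjusted p 0.662) and with no filter on low counts (3.38, adjusted p 0.0581).

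Tubb3, the neuronal beta-tubulin, had 130.1, 164, 122 and 125 CPM in ganglion spots and 13.1, 12.7, 28.7 and 4.59 CPM in rod spots, with no overlap. Ganglion over rod spots was 2.96 ± 0.63 (n = 4, edgeR adjusted p 4.17e-08). Only ganglion spots reached 10 UMIs of Tubb3 in at least 3 frames, and its route into the tests was not worked out. Its calls against ganglion spots are therefore a description. Bipolar spots, at 70.9, 39.0, 82.9 and 0 CPM from 9 UMIs, lay below all ganglion values, but the difference did not pass (1.55 ± 1.05, adjusted p 0.0726). It passed when a panel minimum of 3 UMIs enlarged the bipolar group (1.97, adjusted p 0.00884). Optic nerve spots had 339, 52.8 and 46.7 CPM, the first of them 2 UMIs, and differed from ganglion spots by no more than their spread (−0.99 ± 1.18, adjusted p 0.388). Relative to the all-gene median the sign turned (0.11).

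The Tubb3 promoter, that of the neuronal beta-tubulin, follows for comparison (GRCm38.p6, chr8:123411303-123411602, plus strand). It holds 2 SP matches, in capitals, and no CRX or SOX match. Of the 10 genes, Crmp1, Map1b, Stmn3 and Tubb3 had an entry among the RefSeq promoters used.
Tubb3: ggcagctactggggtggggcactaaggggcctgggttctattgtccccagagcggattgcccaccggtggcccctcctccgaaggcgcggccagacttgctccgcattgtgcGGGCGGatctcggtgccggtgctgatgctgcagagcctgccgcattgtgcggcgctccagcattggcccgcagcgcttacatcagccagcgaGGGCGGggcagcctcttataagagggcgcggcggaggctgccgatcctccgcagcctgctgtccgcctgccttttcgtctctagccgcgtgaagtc

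Paralogues were compared by the difference of their log2 folds within each frame, which cancels what a gene's own capture adds to its level. For 9 pairs in 3 comparisons, 27 differences were computed, and an exact two-sided sign-flip permutation test over frames was used. It cannot go below 0.125 with 4 frames or 0.25 with 3, so none could pass, and the smallest value adjusted over the 27 was 0.397. Differences of the same sign in every frame numbered 2 of 9 for ganglion over rod spots, 3 of 9 for ganglion over bipolar spots and 7 of 9 for optic nerve over ganglion spots. Where a gene had 0 UMIs in a group, the prior of 2 UMIs set its fold. Of those same-sign pairs, 2, 0 and 1 had UMIs of both genes in both groups of every frame in the 3 comparisons, and these alone rest on measured levels throughout.

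Within the CRMPs, Dpysl2 minus Dpysl3 was 4.47, 4.30, 4.50 and 5.16 log2 units in frames 1 to 4 for ganglion over rod spots. The mean was 4.61 ± 0.379 (SD, n = 4 frames, exact permutation p 0.125). Dpysl3 minus Crmp1 was −4.67 ± 0.351 (exact p 0.125) in the same comparison, and Dpysl2 minus Crmp1 was −0.06 ± 0.554 with mixed signs (exact p 0.875). Dpysl3 parted from each of the other two in every frame. For optic nerve over ganglion spots, Dpysl2 minus Crmp1 had UMIs of both genes in both groups in frame 4 alone, where it was 1.66.

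Within the stathmins, Stmn1 minus Stmn4 was −2.61, −3.09 and −2.89 in frames 2 to 4 for optic nerve over ganglion spots (mean −2.86 ± 0.241, SD, n = 3 frames, exact p 0.25), on 7 UMIs of Stmn1 in the nerve. Stmn2 minus Stmn4 was measured in frame 4 alone (−4.39), and Stmn3 had no UMI in the nerve, so that its differences there are set by the prior and are not given. For ganglion over rod spots, none of the 6 stathmin pairs kept 1 sign in all frames. For ganglion over bipolar spots, Stmn2 was measured in both groups in frames 1 and 2. There Stmn2 minus Stmn3 was 3.14 and 2.05, Stmn2 minus Stmn4 0.81 and 1.73, and Stmn1 minus Stmn2 −1.40 and −2.57.

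**Figure D4:**
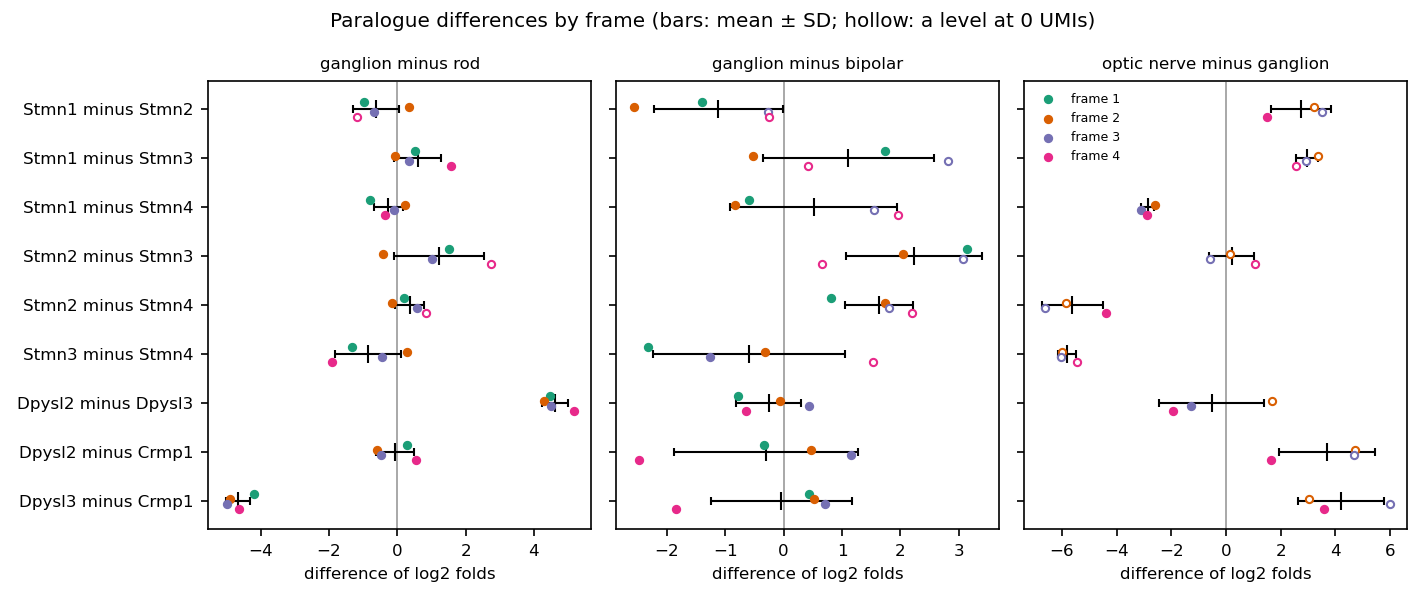
Differences between paralogues in log2 fold (horizontal axis, log2 units) for 9 pairs in 3 comparisons; filled points are frames with UMIs of both genes in both groups, hollow points are frames in which a gene had 0 UMIs in a group and the prior set its fold, and the black marks and bars show mean and SD over both kinds (n = 4 frames, 3 for optic nerve over ganglion spots). Dpysl2 minus Dpysl3 lies at 4.30 to 5.16 in ganglion over rod spots, and Stmn1 minus Stmn4 lies at −3.09 to −2.61 in optic nerve over ganglion spots, where most points of other pairs are hollow.

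Other genes of the same processes gave a wider view. Of 22 tested genes for further growth cone proteins, 14 were higher in ganglion than in rod spots and 1 lower, with a median log2 fold of 1.46. Of all genes, 24.8% were called higher and 21.5% lower there. The adhesion molecule Cntn1 averaged 405 ± 55.3 CPM in ganglion spots and 23.7 ± 11.003 CPM in rod spots (3.87 ± 0.27, edgeR adjusted p 5.63e-20). Marcks, an actin-binding protein kinase C substrate, reached 2.70 ± 0.29 (adjusted p 2.36e-17) and the reticulon Rtn1 2.43 ± 0.18 (adjusted p 4.80e-17). The neural cell adhesion molecule Ncam1 was the lower one (−0.58 ± 0.19, adjusted p 0.0426). In optic nerve over ganglion spots 2 of these 22 were higher and 8 lower, where 5.01% and 17.4% of all genes were called. Ncam1 had 3432 ± 191 CPM in the nerve and 810.5 ± 68.8 CPM in the ganglion spots of the same frames (1.69 ± 0.07, n = 3, adjusted p 6.25e-07), and Tmsb4x, which sequesters actin monomers, was higher too (1.43 ± 0.38, adjusted p 0.000123). Rtn1 was lower (−3.79 ± 2.20, adjusted p 2.01e-09). The all-gene median of −1.10 puts these 3 folds at 2.79, 2.53 and −2.69 relative to it.

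Of 13 tested microtubule-associated genes, 9 were higher in ganglion than in rod spots and 2 lower, with a median of 1.66. The shares over all genes were 24.8% and 21.5%. Mapt, which encodes tau, averaged 297 ± 91.7 CPM in ganglion spots and 11.99 ± 4.50 CPM in rod spots (4.33 ± 0.45, edgeR adjusted p 1.80e-18), and Tppp, a tubulin polymerization promoting protein, reached 3.91 ± 0.86 (adjusted p 4.53e-16). Map2, the dendritic microtubule-associated protein, was lower (−1.27 ± 0.24, adjusted p 0.000358), at 144 ± 25.3 CPM in ganglion spots and 303 ± 25.0 CPM in rod spots. Of 7 tested tubulin isotypes other than Tubb3, 5 were higher in ganglion than in rod spots and none lower, beside the same shares of all genes. Among them were Tubb2a (3.28 ± 0.53, adjusted p 9.10e-12) and Tubb4a (3.89 ± 0.60, adjusted p 1.48e-09). In optic nerve over coat spots, Tubb4a was higher (5.33 ± 0.97, or 6.36 relative to the all-gene median, adjusted p 1.07e-06; 15 UMIs against 2) and Tubb5 was lower, with 0 UMIs in the nerve and 136 in coat spots.

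Of 16 tested kinases and guidance genes, 5 were higher in ganglion than in rod spots and 3 lower, near the 24.8% and 21.5% of all genes called. Mapk10, the neuronal c-Jun N-terminal kinase, averaged 980.4 ± 43.4 CPM in ganglion spots and 40.3 ± 14.3 CPM in rod spots (4.42 ± 0.46, edgeR adjusted p 1.27e-35). Dyrk2, a kinase known to prime CRMPs for phosphorylation by Gsk3, was lower (−3.03 ± 0.63, adjusted p 5.56e-08), as was Tardbp (−0.98 ± 0.22, adjusted p 0.000292), whose protein TDP-43 is known in human neurons to keep STMN2 transcripts intact. Of the 2 tested partners and relatives of the families, Fez1, a kinesin adaptor, was higher (2.54 ± 0.49, adjusted p 6.06e-11) and Rufy3 lower (−1.42 ± 0.28, adjusted p 1.79e-05). Of 4 tested genes of the response to axon injury, Klf7 was higher (3.25 ± 0.58, adjusted p 3.67e-06) and the others did not pass, so that 1 of 4 was called higher beside 24.8% of all genes. Only 4 of the 16 genes of that list had enough UMIs to be tested.

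Over the 19 sums of a frame and a spot group, the genes outside the panels whose log2 CPM ran most like that of Stmn4 were Kif5a (Pearson r 0.94), Fez1 (0.93) and Cntn2 (0.91). For Stmn2 they were Fars2, Nptx1 and Tac2 (0.93 to 0.92), for Stmn3 Camkv, Iqsec3 and Chrm2 (0.94 to 0.93) and for Dpysl3 Arl3, Wasf3 and Pes1 (0.89 to 0.82). For Stmn1 they included Nrcam and Setd7. For Dpysl2 they were Adam22, Nap1l5 and Marcks, and for Crmp1 Cygb, Oxr1 and Mast1. For Gap43 they were Lrp12, Sptbn4 and Kcnt1, for Map1b Ppm1b, Hnrnpul2 and Myef2, and for Tubb3 Lrrc4b, Sparcl1 and Uchl1. Among the 10 genes themselves the closest pairs were Stmn3 with Crmp1 (0.880) and Stmn2 with Gap43 (0.833), while Dpysl3 and Tubb3 ran most against each other (−0.489). Some of the genes named were sparse, among them Cntn2 (26 UMIs), Lrrc4b (64), Tac2 (65) and Nptx1 (80), so their correlations rest on few UMIs. The sums share frames, depth and the grouping of spots, so all these correlations describe the pattern only.

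The 19 sums left out the ungrouped spots, which held between 18.4% (Stmn2) and 34.6% (Crmp1) of each gene's UMIs. In those spots Stmn4 had 590.1, 713, 614 and 382 CPM in frames 1 to 4, between its ganglion and rod levels in every frame. Dpysl3 had 142, 192, 247 and 279.5 CPM there, between the same groups in frames 2 to 4 and below both in frame 1. The coat group joined 519 spots with more enrichment of pigment genes and 50 with more enrichment of fibrous genes, and the other 3 tied and entered neither part. Dpysl2 averaged 517 ± 118 CPM in pigmented spots and 1079 ± 269 CPM in fibrous ones (SD, n = 4 frames), a difference that was not tested. The coat over rod call of Dpysl2 (0.70 ± 0.50, edgeR adjusted p 0.0434) was lost without any 1 of the 4 frames (adjusted p 0.0505 to 0.212), with no filter on low counts (0.59, adjusted p 0.305) and with an enrichment of 1.2 and no margin between panels (0.55, adjusted p 0.114).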

How the data were processed

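Visium libraries of 4 frames of mouse posterior eyes were analysed from the UMI counts the authors deposited, whole numbers per gene and spot. They were made with Space Ranger (spaceranger 2.0.0 per the file headers, mm10 per the submitters' processing notes), and every deposited barcode lay under tissue. The members and lists were chosen with earlier results of these data known. Spots were grouped as the report states, with 5 panels of 71 genes, which stayed out of library sizes and tests. UMIs were summed per frame and group where a frame had at least 5 spots (19 sums), filtered at a minimum count of 10, and fitted with edgeR 4.0.16 (TMM, robust quasi-likelihood, R 4.3.3) with frame as a block, since the groups of a comparison come from the same frame. A comparison needed 3 frames, and calls used a Benjamini-Hochberg adjusted p of 0.05 over 4115 genes. The ± beside a fold is the SD of frames' own folds with a prior of 2 UMIs. The mean of those folds can differ from the fitted fold, so the ± is not a spread around the fitted value. Named genes were all 10 members, up to 3 higher and 3 lower per other list by lowest p, and the 3 most alike per member. A gene that this rule names is not reported here. The fit was tested on simulated data.

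Deviations of the spot groups from their means were weakly related within a frame: the correlations of the 22 pairs ran from −0.01 to 0.11. The labels call the frames biological replicates and say nothing more, so p-values measure the spread between these frames. Intervals and floors cover counting error only and were taken at 95%. They and the pooled ratios join all frames and ignore the pairing by frame, unlike the fits. Doublets do not apply to spots, and no doublet caller was run. Alternatives were DESeq2 1.42.0, no filter, no block, panel genes kept in library sizes, other spot groupings, each frame left out, no mitochondrially encoded genes, and a prior of 0.5 UMIs. Those chosen after seeing the data were no TMM factors, a panel minimum of 3 UMIs, and optic nerve without each gene's richest spot. The other marker lists were amacrine, Müller, Schwann, microglia, cone and horizontal cells. Of these, 7 of 8 tested amacrine genes, 6 of 9 Müller genes, 2 of 3 microglia genes and the 1 tested horizontal cell gene were higher in ganglion than in rod spots, and none of the 2 Schwann genes passed. Of all genes, 24.8% were higher there. Müller markers summed to 14811 CPM in optic nerve spots, with Rlbp1 at 0, and 1349 CPM in ganglion spots. Of their 595 UMIs in the nerve, Gfap gave 290, Apoe 103, Vim 83 and Glul 61, and Dkk3 gave 6. Which cells of the nerve held these transcripts was not tested.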

Additional observations from a re-analysis of the deposited data

Results flagged for a closer look

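Of 50 sets of 4 values (10 genes in whole frames and in 4 spot groups), 2 had 1 value far from the rest, and such a criterion picks about 1 set in 20 by chance. In coat spots Stmn1 stood at 165 CPM in frame 4, against 21.1 to 44.4 CPM in the other frames. Also in coat spots, Map1b stood at 41.2 CPM in frame 4, against 285 to 330.4 CPM in the others. Frame 4 had 41 coat spots with 24287 UMIs, so that the values rest on 4 UMIs of Stmn1 and 1 of Map1b.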

How the results depend on the processing

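Of 60 tests of the 10 genes, 33 passed, and 25 of these passed in each of 14 alternatives. The other 8 are given with their values in the report, and 6 tests that missed the threshold passed under some alternative. The call of Gap43 in optic nerve over coat spots alone changed sign, its fold running from −3.10 without frame 4 to 5.25 without frame 3. Without frame 4 the nerve held 0 UMIs of Gap43, so −3.10 depends on the prior count and is not an estimate. Among folds that passed in neither fit, 33 changes of sign were counted, a fold counting once for each alternative in which it turned. Without the replicate block on frames, the counts of called genes were 1897 for ganglion over rod, 1068 for bipolar over rod, 492 for ganglion over bipolar, 920 for optic nerve over ganglion, 536 for optic nerve over coat and 1275 for coat over rod spots, and no call of the 10 genes changed. Optic nerve over ganglion spots gave 562 genes with DESeq2 and 600 without TMM factors, against 921. Optic nerve over coat spots gave 290 with DESeq2 and 325 without TMM factors, against 501. With neurofilament and synuclein genes out of the ganglion panel, 123 ganglion spots remained, 2187 genes were tested, and the counts were 1104 for ganglion over rod, 290 for ganglion over bipolar, 580 for optic nerve over ganglion and 822 for coat over rod spots. An enrichment of 2 left 633 rod spots. Leaving out each frame gave 602 to 1035 genes for bipolar over rod, 263 to 435 for ganglion over bipolar, 467 to 799 for optic nerve over ganglion and 148 to 433 for optic nerve over coat spots. Paralogue differences of 1 sign in every frame numbered 12 to 20, the 20 without frame 2, and these include differences set by the prior. Causes of these changes were not tested. Depth limits the optic nerve, with 46279 UMIs in 3 frames, and bipolar spots, with 9214 UMIs in frame 4.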
